A study of Mus musculus with 7 samples.

Results

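Natural killer (NK) cells were rare in JW23.3 tumors. A total of 52 NK cells were found among 33136 cells that passed the cell filter (0.157%), out of 39537 deposited cells. They were chosen by their own transcripts: at least 500 genes and at most 10% mitochondrial unique molecular identifiers (UMIs, each standing for 1 captured RNA molecule), at least 2 UMIs of Ncr1 plus Klrb1c, 0 UMIs of Cd3e plus Cd3d, at most 1 UMI of the macrophage genes Csf1r, Adgre1 and Mrc1, and at most 1 UMI of the tumor cell genes Tafa1, Unc5c and Col11a1. Of the 52 cells, 33 came from irradiated and 19 from control tumors.

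JW23.3 is a mouse malignant peripheral nerve sheath tumor (MPNST) line with mutations of Nf1 and Trp53. It is a single line, and all tumors in both groups were grown from it under the flank skin of wildtype female C57/B6 mice implanted at 5 to 6 weeks of age. The 4 irradiated tumors received 5 daily fractions of 2 Gy with the rest of the body shielded, and the 3 control tumors received none. All tumors were taken on day 21 after implantation, and each gave 1 droplet library of 3' transcript ends, so the tumor was the replicate. The libraries held 2859 to 8452 cells.

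NK cells are innate lymphocytes that kill stressed, transformed or infected cells without a rearranged antigen receptor. Each cell weighs signals from activating receptors against signals from inhibitory receptors that read major histocompatibility complex class I on the target. Killing is carried out by perforin and granzymes released from granules, and the cells also secrete interferon gamma and chemokines that draw in dendritic cells. In tumors, NK cells overlap in phenotype with type 1 innate lymphoid cells (ILC1), tissue-resident relatives that also carry Ncr1 and Klrb1c.

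The rule left out some cells that lay near it. Among filtered cells, 81 had at least 2 UMIs of Ncr1 plus Klrb1c, and 16 of these were left out for Cd3e or Cd3d, 3 for macrophage genes and 10 for tumor cell genes. A further 13 cells passed the other criteria with 1 UMI and lay just outside, while 8 of the 52 NK cells had exactly 2 UMIs and lay just inside. No doublet caller was used, and the exclusion genes were the only guard against doublets. Of the 52 NK cells, 9 carried 1 UMI of an exclusion gene. Across libraries 190 cell barcodes were shared, 2 of them by an NK cell with a cell of another library, and 0 barcodes were NK cells in both.

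The label was checked against fixed marker lists, which were chosen with earlier results of these data known. All 12 genes of the NK list were detected, among them Ncr1 and Klrb1c, on which the rule selected the cells and which are therefore no check. Nkg7, a granule membrane protein that the rule did not use, was found in 47 of 52 cells. Klrk1, which encodes the activating receptor NKG2D, was found in 48 cells, and Klrd1, the partner of the NKG2A and NKG2C chains, in 43. Il2rb, the shared receptor chain for interleukins 2 and 15, was found in 47, and Tbx21, the transcription factor T-bet, in 46. Eomes, Prf1 and Gzma of the same list were found in fewer cells, 25, 24 and 21 of 52. In the T cell list Cd3e and Cd3d were at 0 by the rule, and Cd4, Cd8a, Cd8b1 and Cd5 were also at 0. A count of 0 in 435017 UMIs allows up to 6.90 CPM (UMI counts scaled to a fixed library total), counting error only.

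Some T cell transcripts were present. Trbc1, the constant region of the T cell receptor beta chain, was found in 41 of 52 NK cells at 393 CPM, against 351 CPM in T cells. Cd28 was found in 27 NK cells at 205 CPM, against 591 CPM in T cells. Trac, the alpha chain constant region, was found in 2 NK cells and Cd3g in 1. In all, 7 of the 13 genes of the T cell list had a UMI, among them Trbc2 and Trdc, whose counts are not given singly. A stricter exclusion allowed no UMI of the macrophage and tumor cell exclusion genes, Cd3g, Trac or Trdc. It left 6, 4, 5 and 11 NK cells in irradiated tumors 1 to 4 and 2, 5 and 2 in control tumors 1 to 3. Granulocyte and mast cell lists had 0 of 5 genes each. The summed macrophage list stood at 111 to 329 CPM in irradiated and 187 to 302 CPM in control NK cell sums, against 33680 CPM in macrophages, and the MPNST list at 0 to 58.03 and 0 to 70.1 CPM, against 5254 CPM in tumor cells. Both contrasts were partly set in advance. The lists hold the exclusion genes, which the rule limited in NK cells and which also defined the macrophage and tumor cell classes. The B cell list was reduced to 1 of 5 genes, Ighm.

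The NK cells carried the mark of the female host. Xist, transcribed from the inactive X chromosome of female cells, was found in 90.4% of NK cells, 92.5% of T cells and 94.6% of macrophages, but in 5.25% of tumor cells. The comparison classes were built by count rules. T cells (859 cells) had at least 2 UMIs of Cd3e plus Cd3d and none of Ncr1 or Klrb1c, with the same limits on macrophage and tumor cell genes, and macrophages (9131 cells) and tumor cells (14573 cells) had at least 5 UMIs of their exclusion genes.

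**Figure D1:**
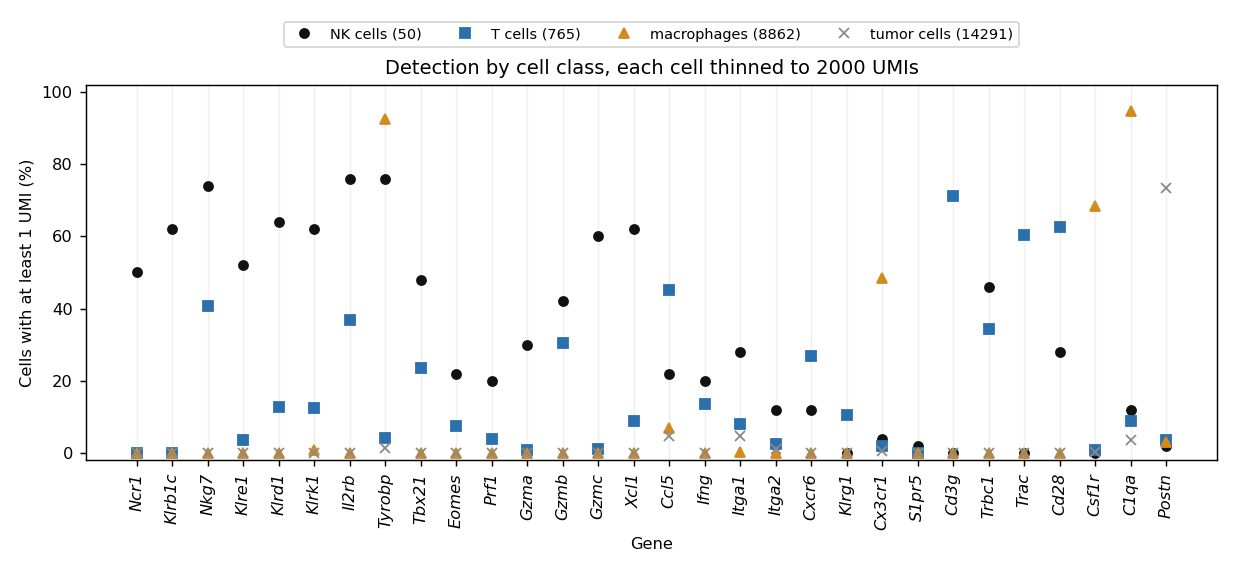
Percentage of cells with at least 1 UMI of each gene (vertical axis) in 50 NK cells (black circles), 765 T cells (blue squares), 8862 macrophages (orange triangles) and 14291 tumor cells (gray crosses), each cell thinned to 2000 UMIs. Tyrobp was high in NK cells and macrophages, Gzmc and Xcl1 were high in NK cells alone of the 4 classes, and Ccl5 was found in more T cells (45.1%) than NK cells (22.0%).

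NK cells were deeper than T cells, with median UMIs of 3698 to 9428 per tumor in NK cells and 2527 to 5723.5 in T cells. Shares of cells with a UMI are therefore compared after thinning each cell to 2000 UMIs, which left out 2 NK cells and 94 T cells. Because NK and T cells were told apart by their transcripts, differences between these classes are a description and were not tested. Levels are given as CPM of the summed counts, and the ratio of NK to T cells on the log2 scale with 20 CPM added to both. Of 4095 genes with at least 50 CPM in either class, 49 (1.2%) were at least 4-fold higher in NK cells and higher in all 7 tumors, and 76 (1.86%) were at least 4-fold lower and lower in all 7.

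Granzymes gave the greatest contrast. Gzmc, a granule serine protease of the granzyme B cluster, was found in 31 of 52 NK cells with 3914 UMIs in all. Its level was 8997 CPM in NK cells and 15.4 CPM in T cells, a log2 ratio of 7.99. After thinning it was found in 60.0% of NK cells and 1.05% of T cells, and in 0.113% of macrophages. Gzmc CPM in the NK cell sums of irradiated tumors 1 to 4 was 1567, 36.9, 4615 and 14625, and that of control tumors 1 to 3 was 10569, 2729 and 9716. The groups overlapped, and irradiated tumors held both the lowest and the highest value. Summed over all tumors, 70.4% of Gzmc UMIs of filtered cells were in NK cells and 17.9% were in the cells left out for macrophage or tumor cell genes. By tumor the share in NK cells was 31.5%, 0.508%, 91.1% and 93.3% in irradiated tumors 1 to 4 and 49.8%, 94.5% and 79.8% in control tumors 1 to 3, so it was under 50% in 3 of 7.

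Gzmc lies in a row of related genes on chromosome 14 (GRCm38, GENCODE annotation, all on the minus strand): Gzmb at chr14:56258838-56262260, Gzmc at chr14:56231441-56234656, Gzmf at chr14:56205263-56211417, Gzmg at chr14:56156582-56159579, Gzmd at chr14:56129556-56132608 and Gzme at chr14:56117626-56120625. The RefSeq promoter table (GRCm38.p6, 250 bases before to 50 after the start) held all 6. The promoters of Gzmc, Gzmf and Gzmb are shown 5' to 3' on the gene's strand. Gzmc held the most UMIs of the row in NK cells, and Gzmf the most UMIs in a single cell. Gzmb is the neighbor that T cells also carry. Capitals mark matches on either strand to ACTTCCTG and AACCACA. The first is a sequence with the core bound by ETS factors, and the second one with the core bound by RUNX factors.
Gzmc promoter, chr14:56234608-56234907: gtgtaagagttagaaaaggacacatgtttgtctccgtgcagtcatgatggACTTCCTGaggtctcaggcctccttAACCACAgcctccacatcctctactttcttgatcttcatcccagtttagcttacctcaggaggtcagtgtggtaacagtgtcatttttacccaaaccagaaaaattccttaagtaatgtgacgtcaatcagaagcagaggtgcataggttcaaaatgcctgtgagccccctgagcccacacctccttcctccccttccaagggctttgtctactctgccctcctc
Gzmf promoter, chr14:56211358-56211657: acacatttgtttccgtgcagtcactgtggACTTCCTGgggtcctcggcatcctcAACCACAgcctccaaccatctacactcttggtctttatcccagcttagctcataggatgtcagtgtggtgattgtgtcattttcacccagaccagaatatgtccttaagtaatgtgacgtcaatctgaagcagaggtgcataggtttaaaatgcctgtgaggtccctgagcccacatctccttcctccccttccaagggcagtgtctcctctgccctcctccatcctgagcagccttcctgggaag
Gzmb promoter, chr14:56262285-56262584: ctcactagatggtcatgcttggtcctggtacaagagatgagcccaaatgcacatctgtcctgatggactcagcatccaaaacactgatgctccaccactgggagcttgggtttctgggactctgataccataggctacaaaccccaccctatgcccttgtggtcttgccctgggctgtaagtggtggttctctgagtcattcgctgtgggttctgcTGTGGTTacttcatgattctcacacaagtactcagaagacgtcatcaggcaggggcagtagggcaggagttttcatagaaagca
Aligned end to end, the Gzmc promoter was 75.1% identical to that of Gzmf, 83.5% to that of Gzmd and 50.4% to that of Gzmb. Each of the Gzmc, Gzmd, Gzme, Gzmf and Gzmg promoters held 1 match to each motif. The motifs were chosen after the sequences were read, and TGACTCA (AP-1), AGGTGTGA (T-box) and TATAAA were also searched, with 1 match in all, of TGACTCA in the Gzmb promoter. The Gzmb promoter held 1 match to the second motif, printed there as its reverse complement TGTGGTT, and 0 to the first. Among 32851 promoters of the same length, 3.33% held the first motif and 5.27% the second, on either strand.

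Gzmd was found in 9 NK cells, and all 9 also held Gzmc. Gzme was found in 7 cells, Gzmf in 4 and Gzmg in 2. Of the 4 cells with Gzmf, 2 held no Gzme, with 122 UMIs of Gzmf in a cell of control tumor 1 and 1 UMI in a cell of irradiated tumor 3. A single NK cell of irradiated tumor 4 held 46.6% of the 6943 UMIs of Gzmc to Gzmg, with 889 UMIs of Gzmc, 542 of Gzmd, 97 of Gzme, 1512 of Gzmf and 198 of Gzmg among 28997 UMIs. These 5 genes made up 11.2% of its UMIs. The second highest cell, also of irradiated tumor 4, held 1192 such UMIs, and the third, of control tumor 1, held 515. The counts of Gzmd to Gzmg are uncertain as to gene, because 7.10% (Gzmf) to 20.6% (Gzmd) of the 50-base words in the last 500 bases of each transcript also occur in another gene of the row. For Gzmc, Gzmb and Gzma this share was 0.

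Gzmb and Gzma followed other patterns. Gzmb, the main caspase-activating granzyme, was found in 32 NK cells at 1060 CPM, against 465 CPM in T cells. It was higher in NK than in T cells in 4 of 7 tumors and lower in irradiated tumors 1 to 3. Gzma, whose gene lies on chromosome 13, was found in 21 NK cells at 825 CPM, against 9.52 CPM in T cells, and 76.2% of all Gzma UMIs lay in NK cells. The NK cells of irradiated tumor 3 and control tumor 3 held 0 Gzma UMIs, and the share of Gzma UMIs in NK cells was 11.8% in irradiated tumor 2 and 63.04% to 85.2% in the other 4 tumors. Gzma and Gzmc were found together in 14 cells, Gzma alone in 7, Gzmc alone in 17 and neither in 14. The median depth was 9376 UMIs in cells with both and 5097 in cells with neither, so the overlap moves with depth. Prf1, the pore-forming protein that admits granzymes, was found in 24 NK cells at 241 CPM, against 23.4 CPM in T cells. Gzmm was found in 1 NK cell. Serpinb9, which inhibits granzyme B and so shields its owner, stood at 398 CPM in NK cells and 36.9 CPM in T cells.

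**Figure D2:**
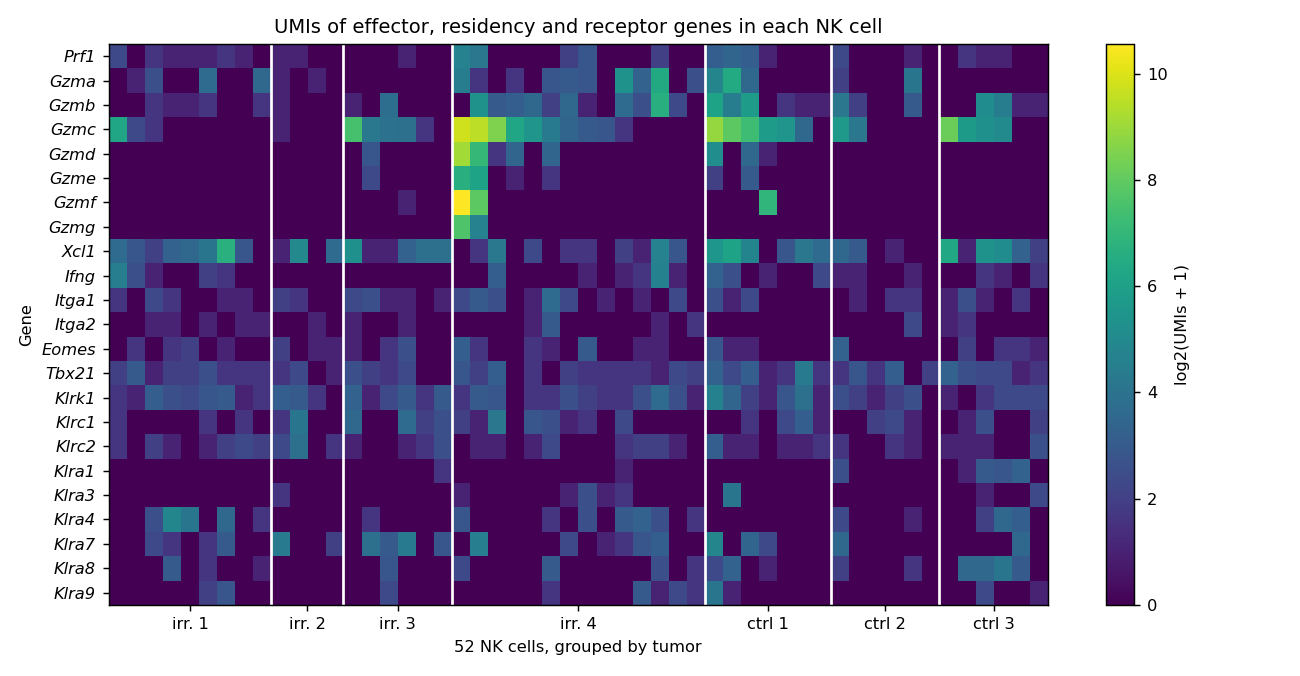
UMIs of 23 genes (rows, log2 of UMIs plus 1) in each of the 52 NK cells (columns), grouped by tumor with white lines and ordered within a tumor by Gzmc. Gzmd to Gzmg were found in a few of the cells that held Gzmc, chiefly 2 cells of irradiated tumor 4, while Tbx21 and Klrk1 were found across all tumors and the Klra genes in changing combinations.

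Receptors were next. Of the 17 activating receptors of the list, 17 were detected and 14 had a higher CPM in NK than in T cells. Both counts include Ncr1 and Klrb1c, which the rule used to select NK cells and barred from T cells. Klrk1 stood at 524 CPM in NK cells and 95.9 CPM in T cells. Klrc2, the activating NKG2C chain, was found in 35 NK cells, and Klrc1, the inhibitory NKG2A chain, in 27. Cd244a, the 2B4 receptor for CD48, stood at 257 CPM in NK cells and 14.6 CPM in T cells. Tnfrsf9, the costimulatory receptor 4-1BB, did not part the classes, with 699 CPM in NK and 560 CPM in T cells. Klrb1b, an inhibitory receptor of the NKR-P1 family, stood at 474 CPM against 0.976 CPM, and Klrb1f, its activating relative, at 205 CPM against 2.93 CPM.

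Ly49 receptors, encoded by the Klra genes on chromosome 6, are switched on in a patchwork so that each NK cell carries its own set. Of the 9 Klra genes counted, at least 1 was found in 35 of 52 NK cells, in 27 distinct combinations, and none in 17 cells. The median depth was 7072 UMIs in cells with at least 1 and 5745 UMIs in cells with none. In the cells with at least 1, 6 held 1 gene, 8 held 2, 12 held 3, 6 held 4 and 3 held 5. Klra7 (Ly49G, inhibitory) was found in 21 cells, Klra4 (Ly49D, activating) in 18, Klra8 (Ly49H, activating) in 17 and Klra9 in 12. Klra4 and Klra8 were found together in 11 cells. Counts within the family are uncertain, because 40.6% to 44.8% of the 50-base words at the 3' ends of Klra3, Klra9 and Klra10 occur in another Klra gene. Klra4 also had a second source, with 36289 UMIs in all filtered cells, 0.350% of them in NK cells, and a UMI in 9.86% of thinned tumor cells against 18.0% of thinned NK cells.

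Below the receptors, adaptors that carry an immunoreceptor tyrosine-based activation motif stood high. Fcer1g was found in all 52 NK cells, at 1455 CPM against 51.5 CPM in T cells, and Tyrobp (DAP12) in 46, at 1230 CPM against 28.1 CPM. Both are also macrophage genes, found in 98.4% and 92.5% of thinned macrophages. Cd247, the zeta chain, went the other way, with 80.5 CPM in NK cells and 463 CPM in T cells, as did Lat, the T cell scaffold, with 11.5 CPM against 196 CPM. Plcg2 stood at 156 CPM against 5.13 CPM and Clnk, an SLP-76 family adaptor, at 494 CPM against 26.1 CPM. Zap70, a kinase downstream of the zeta chain, was found in 20 NK cells at 80.5 CPM, against 130 CPM in T cells.

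Chemokine and cytokine genes differed in how much of their RNA lay in NK cells. Xcl1, the chemokine that attracts cross-presenting dendritic cells, was found in 41 of 52 NK cells at 1634 CPM, against 94.2 CPM in T cells. NK cells were 0.157% of filtered cells but held 39.8% of their Xcl1 UMIs, against 21.6% in T cells. By tumor that share ran from 10.6% (control tumor 2) to 56.2% (control tumor 3), and the Xcl1 level was higher in NK than in T cells in 7 of 7 tumors. Ifng was found in 21 NK cells, which held 12.0% of its UMIs against 60.8% in T cells, with 0% in irradiated tumors 2 and 3 and at most 19.4% in a tumor. Ccl5 lay elsewhere, with 0.349% of its UMIs in NK cells, and Csf1, Lta, Il10 and Il2 were at 0 in NK cells.

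Residency genes were mixed. Itga1 (CD49a), a collagen-binding integrin of ILC1 and tissue-resident NK cells, was found in 31 NK cells, and Itga2 (CD49b), an integrin of conventional NK cells, in 15, with both in 10 and neither in 16. Eomes, a transcription factor of conventional NK cells, was found in 25 cells, 16 of which also held Itga1. Among other ILC1 genes, Tnfsf10 (TRAIL) was found in 22 cells, Cxcr6 in 9, Il7r in 8 and Zfp683 (Hobit) in 1. Genes of circulating mature NK cells were rare, with Cx3cr1 in 4 cells, Klrg1 and Itgam in 2 each and S1pr5 in 1. The ILC1 list had 9 of 9 genes detected. It summed to 1400 to 2654 CPM in irradiated and 1553 to 2569 CPM in control NK cell sums, against 2303 CPM in T cells. Itga1, Cxcr6 and Il7r held 90, 32 and 21 of the 435017 NK cell UMIs, so most of the summed level lay in other members. These sums include Inpp4b, Tmem176a, Tmem176b and Cd200r1, whose counts are not given singly. The term NK cell is used here for all 52 cells by the rule.

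Genes lower in NK than in T cells included T cell identity genes. Themis was at 0 in NK cells, against 767 CPM in T cells, and Bcl11b stood at 9.20 CPM against 542 CPM. Ctla4 stood at 64.4 CPM against 953 CPM and Icos at 96.5 CPM against 895 CPM. T cells were taken as a single class. In it 268 cells held Cd8a or Cd8b1 without Cd4, 273 held Cd4 without either, and 19.6% held Foxp3. The type I interferon list summed to 2639 CPM in NK cells and 6729 CPM in T cells, with 5 of 41 matched members higher in NK cells. Its member Ifi27l2a, an interferon-stimulated gene, stood at 87.4 CPM in NK cells (9 cells) and 1925 CPM in T cells.

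Whether irradiation changes the number of NK cells was asked first as a share of all filtered cells. In irradiated tumors 1 to 4 it was 0.143%, 0.173%, 0.197% and 0.477% (9, 4, 6 and 14 cells), and in control tumors 1 to 3 it was 0.138%, 0.0870% and 0.0911% (7, 6 and 6 cells). All 4 irradiated tumors lay above all 3 controls, by a narrow margin between irradiated tumor 1 and control tumor 1 and a wide one in irradiated tumor 4. The 95% Wilson interval was 0.0751% to 0.271% in irradiated tumor 1 and 0.0670% to 0.285% in control tumor 1, so these neighbors did not differ beyond counting error. The means were 0.247% ± 0.155 (SD, n = 4) and 0.105% ± 0.0286 (SD, n = 3). The difference was 0.142 percentage points. Over the 35 splits of the tumors, whose smallest possible p is 0.0286, the exact permutation test (two-sided) returned p = 0.114, or 0.343 after adjustment for 3 comparisons. Without irradiated tumor 4 the difference was 0.0656 points (exact permutation p = 0.1, the smallest possible with 3 against 3). When at least 1 UMI of Ncr1 plus Klrb1c was enough, the groups overlapped.

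The libraries were split into 2 sets by cell number, depth, genes per cell and mitochondrial share, taking the best of 63 splits. Irradiated tumor 1 and control tumors 2 and 3 made the first set and the other 4 tumors the second. The share of variation left within the sets was 0.489, against 0.544 for the next best split. Neither set is given in the sample labels. The difference was 0.0537 points within the first set and 0.144 points within the second, and 0.102 points with the set as a term (exact permutation p = 0.333). Among filtered cells with a UMI of Ptprc, the leukocyte gene CD45, the difference was 0.208 points (exact permutation p = 0.114).

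Against T cells, NK cells did not part the groups. NK cells as a share of NK plus T cells were 5.56%, 4.35%, 4.05% and 7.91% in irradiated tumors 1 to 4 and 7.00%, 5.04% and 5.31% in control tumors 1 to 3. The groups overlapped, with means of 5.47% ± 1.75 (SD, n = 4) and 5.78% ± 1.06 (SD, n = 3). The difference of -0.32 points gave p = 0.743 in the two-sided exact permutation test (adjusted p = 0.743). It was 0.380 points in the first library set and -1.56 points in the second. A share does not tell cell number per tumor, and cells lost in dissociation were not counted.

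**Figure D3:**
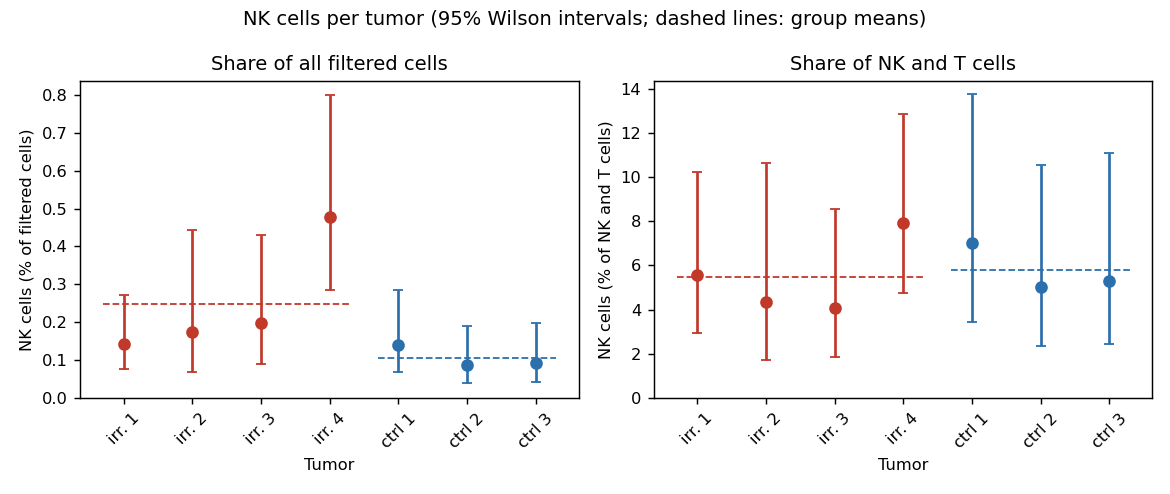
NK cells per tumor as a percentage of filtered cells (left) and of NK plus T cells (right), with 95% Wilson intervals and group means as dashed lines; red, irradiated; blue, control. All irradiated tumors lie above all controls on the left, with irradiated tumor 4 at 0.477% and the others between 0.143% and 0.197%, while the groups overlap on the right.

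Cycling transcripts were compared because irradiation can arrest the cell cycle. At least 3 UMIs of the 40 cell cycle genes were found in 2 of 9, 2 of 4, 5 of 6 and 9 of 14 NK cells of irradiated tumors 1 to 4, and in 4 of 7, 4 of 6 and 4 of 6 of control tumors 1 to 3. The mean share was 55.0% ± 25.7 in irradiated tumors (SD, n = 4) and 63.5% ± 5.50 in controls (SD, n = 3), and the two-sided exact permutation test gave p = 0.629 (adjusted p = 0.743). Over all tumors it was 30 of 52 NK cells (57.7%) and 386 of 859 T cells (44.9%), at unequal depth. After thinning to 2000 UMIs, 10 of 50 NK cells met the threshold. The direction rested on irradiated tumor 1: the difference was -8.53 points over all tumors and 2.38 points when that tumor was left out.

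Genes within NK cells were compared between irradiated and control tumors on counts summed per tumor, 25288 to 146392 UMIs each. By edgeR (quasi-likelihood, Benjamini-Hochberg), 0 of 1013 genes fell under the adjusted threshold of 0.05 (0%), and the smallest adjusted p was 0.925. At an unadjusted p under 0.05 there were 51 genes (5.03%), and with DESeq2 0 genes passed and 38 had an unadjusted p under 0.05. On simulated counts of the same 1013 genes, the fit recovered 85.5% of 200 genes changed by 2 on the log2 scale, and 6.04% of its calls were false. Those counts were drawn per tumor from a mean and a dispersion for each gene. Single cells that dominate a sum were not simulated, so recovery in the real sums may be lower. Groups of tumors did not overlap with irradiated higher for 3.26% of the 1012 tested genes with a unique symbol, and with irradiated lower for 3.06%.

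The genes with the smallest unadjusted p are given as values, since none passed. Zfp654, a zinc finger gene, stood at 348, 442, 327 and 492 CPM in irradiated tumors 1 to 4 and at 173, 158 and 117 CPM in control tumors 1 to 3, without overlap. Its log2 fold change was 1.40 ± 0.44 (SE; edgeR adjusted p = 0.925). Pik3cd, the leukocyte catalytic subunit of phosphoinositide 3-kinase, stood at 271, 295, 245 and 232 CPM against 129, 39.5 and 70.1 CPM, also without overlap (log2 fold change 1.43 ± 0.51). The other genes of this kind with positive values were Tcf12, Herc4 and Plscr1, with log2 fold changes of 1.16 to 1.30. Grcc10, Nop10, Nabp1 and Gem had negative values, at -1.15 to -1.41. Gem was set by control tumor 3, with 2522 CPM against 356 to 679 CPM in the other tumors of that group.

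Gene lists gave no call, with 0 members of any of the 15 lists passing the adjusted threshold. In the cytotoxic granule list, 10 of 23 members were tested, 9 with a negative and 1 with a positive log2 fold change (Rab27a, which docks granules at the membrane, 1.22 ± 0.58). The list's median was -0.33, beside 0.01 over all 1013 genes. Gzmd, Gzme, Gzmf and Gzmg were not tested. The summed granule list stood at 7041, 4129, 8617 and 41724 CPM in irradiated tumors 1 to 4 and at 20923, 8779 and 16255 CPM in control tumors 1 to 3, and irradiated tumor 4 was above all others. The means were close, at 15378 ± 17662 CPM (SD, n = 4) and 15319 ± 6126 CPM (SD, n = 3). The high granzyme cell described above belonged to irradiated tumor 4.

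Activating receptors had 5 of 17 members tested, 4 positive and 1 negative, with a median of 0.16. Their summed level was 3778 ± 658 CPM in irradiated tumors (SD, n = 4) and 3728 ± 221 CPM in controls (SD, n = 3). That sum includes Ncr1 and Klrb1c, on which the cells were selected. Inhibitory receptors had 3 of 21 tested, and Klrc1 (NKG2A) had the greatest value, 0.88 ± 0.55. In the adaptor list 10 of 20 were tested, and Hcst (DAP10, the adaptor of NKG2D) stood at 213, 258, 204 and 246 CPM in irradiated tumors 1 to 4 and at 334, 633 and 350 CPM in control tumors 1 to 3. The groups of Hcst did not overlap, with a log2 fold change of -0.86 ± 0.41 (edgeR adjusted p = 0.943).

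Among transcription factors 19 of 31 were tested, 12 positive and 7 negative, with a median of 0.06. Tbx21 stood at 542, 258, 286 and 260 CPM in irradiated and 496, 830 and 584 CPM in control tumors, and only irradiated tumor 1 reached the control range (log2 fold change -0.90 ± 0.39; edgeR adjusted p = 0.925). Secreted factors had 5 of 17 tested, with Tgfb1, a suppressive cytokine, at 1.09 ± 0.47 and Ifng at 0.58 ± 1.16. Ifng was at 0 in irradiated tumors 2 and 3. Cytokine receptors and JAK-STAT genes had 11 of 29 tested and a median of 0.07.

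Interferon lists could hardly be tested at this depth, with 1 of 41 matched type I genes and 2 of 28 type II genes passing the filter on low counts. The summed type I list stood at 2267 ± 788 CPM in irradiated tumors (SD, n = 4) and 2432 ± 1398 CPM in controls (SD, n = 3). Zap70 was not tested, and stood at 116, 111, 61.3 and 116 CPM in irradiated and 53.9, 0 and 23.4 CPM in control tumors on 35 UMIs in all. Ifi27l2a was not tested either, at 58.03, 0, 265 and 137 CPM against 0, 79.1 and 0 CPM on 38 UMIs.

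The dissociation stress list, immediate early and heat shock genes that enzymatic dissociation is known to induce, had 15 of 24 tested, 4 positive and 11 negative, with a median of -0.26. Its sum stood at 11895 ± 4044 CPM in irradiated tumors (SD, n = 4) and 14035 ± 2670 CPM in controls (SD, n = 3), and its part in the other results was not tested. The TGF-beta and ILC1 list had 8 of 25 tested, 3 positive and 5 negative, with Rora at -1.25 ± 1.49 and Rgs1, an inhibitor of chemokine receptor signaling, at -0.88 ± 0.47. Rora was set by control tumor 2, at 1621 CPM against 0 to 470 CPM in the other tumors. Of the p53 targets 1 of 24 was tested, Btg2 at -0.90 ± 0.38. The glycolysis list had 4 of 19 matched genes tested, all with negative values and a median of -0.25. Chemokine receptors and adhesion genes had 8 of 24 tested, with 0 called, and a median of 0.14.

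**Figure D4:**
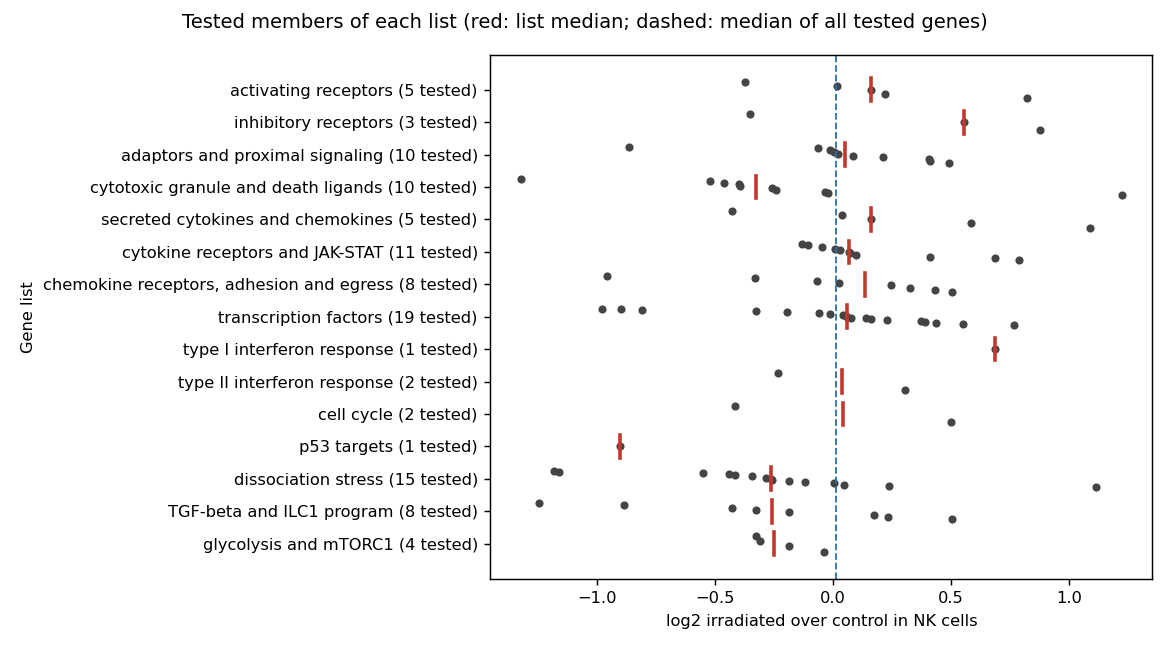
Log2 fold change of irradiated over control NK cells (horizontal axis) for each tested member (points) of 15 gene lists, with the list median in red and the median of all 1013 tested genes dashed. The granule list lies mostly left of the dashed line, with Rab27a as its only point on the right, and no point passed the adjusted threshold.

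The change in NK cells was also set against the change in T cells of the same tumors. The interaction of class and irradiation, with the tumor as a block, passed the adjusted threshold for 4 of 5059 genes (0.0791%) by edgeR. Gzmb had the more negative change in NK cells, with a difference of -2.82 ± 0.45 on the log2 scale (SE; edgeR adjusted p = 2.24e-05). In NK cells Gzmb stood at 155, 36.9, 286 and 1394 CPM in irradiated tumors 1 to 4 and at 1618, 1068 and 1331 CPM in control tumors 1 to 3. In T cells it stood at 248, 408, 590 and 762 CPM against 289, 131 and 350 CPM. In NK cells 3 irradiated tumors lay below all controls, while irradiated tumor 4 lay within the control range.

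A fit added after seeing the data left out the high granzyme cell of irradiated tumor 4, which held 0 Gzmb UMIs, and 1 of 4869 genes passed. The differences of 3 genes were then about as large but no longer past the threshold, at -2.75 for Gzmb (edgeR adjusted p = 0.391), -1.89 for Hspa1a (0.129) and -7.79 for Itgae (0.199). The size of the Gzmf difference was the one that moved, from 6.42 to 3.84 (edgeR adjusted p = 0.00205). The Gzmf UMIs left in NK cells lay chiefly in 1 cell of irradiated tumor 4 (239) and 1 cell of control tumor 1 (122). Across the fits that left out 1 tumor, the size of the Gzmb difference ran from -3.74 (without irradiated tumor 4) to -2.39 (without irradiated tumor 2). Within NK cells alone the Gzmb log2 fold change was -1.32 ± 0.95 (edgeR adjusted p = 0.943), and without irradiated tumor 4 it was -3.003 (edgeR adjusted p = 4.71e-06), and Gzmb was the single gene that passed in that fit. With the replicate number as a block it was -3.12 (edgeR adjusted p = 4.11e-06), a fit in which irradiated tumor 4 has no partner.

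Gzmf had a difference of 6.42 ± 0.71 (edgeR adjusted p = 3.80e-15) on 4 NK cells, 2 of them in irradiated tumor 4, and was not among the calls without that tumor or without control tumor 1. Itgae (CD103, an integrin of tissue-resident lymphocytes) was found in 3 NK cells, 0 of them in irradiated tumors, with 14 UMIs in all, and its fitted difference of -7.72 is no measure of size. It was called without control tumor 1 or control tumor 2, but not without control tumor 3 or any irradiated tumor (differences of -7.97 to -5.89, edgeR adjusted p = 0.164 to 1). Hspa1a, an inducible heat shock gene of the stress list found in 23 NK cells, had a difference of -1.94 ± 0.46 (edgeR adjusted p = 0.0385), with 309, 36.9, 449 and 294 CPM in irradiated and 626, 949 and 374 CPM in control NK cells. When any tumor other than irradiated tumor 3 or control tumor 2 was left out, the difference was no longer past the threshold (edgeR adjusted p = 0.0592 to 0.783) but kept its direction, at -2.06 to -1.53. The same fit on simulated counts recovered 24.5% of 200 genes changed by 2 on the log2 scale, so it left out most changes of that size.

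**Figure D5:**
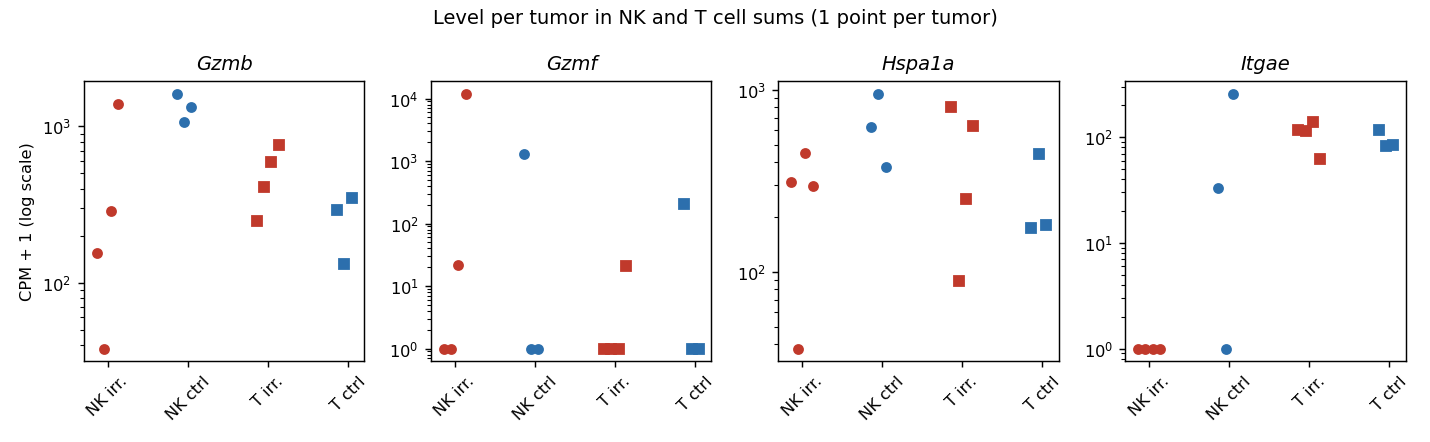
CPM plus 1 on a log axis of Gzmb, Gzmf, Hspa1a and Itgae in the summed NK cells (circles) and T cells (squares) of each tumor, with irradiated tumors in red and control tumors in blue. In NK cells 3 irradiated tumors lie below the 3 controls for Gzmb and irradiated tumor 4 lies among them, and Itgae sits at 0 CPM in all 4 irradiated tumors.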

How the data were processed

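Each of the 7 tumors gave 1 library of a 3' droplet assay. The deposited files hold UMI counts per gene and cell, made by the authors with Cell Ranger (the file headers give version 8.0.0; the submitters' processing notes name mm10 and Seurat 4.4). The 33696 features carry no coordinates, so positions and promoters are those of GENCODE and RefSeq for GRCm38. Intron counting is not given in the sources used here. Members, gene lists and tests were chosen with earlier results of these data known. Counts were summed per tumor and class and tested with edgeR 4.0.16 (filterByExpr, TMM, robust quasi-likelihood, threshold 0.05), with the rule's genes kept in library sizes but not tested; DESeq2 1.42.0 was an alternative. A planned minimum of 10 NK cells per tumor was dropped after the numbers were seen, since 1 tumor reached it. Shares were tested over 35 splits of tumors. Cells were thinned with a fixed seed. Named genes were the markers, up to 5 members of each list with the highest level and the 2 with the largest change, 4 genes named by the study, and, as fewer than 5 genes passed, the 5 higher and 5 lower genes with the smallest p and at least 50 CPM. Others, such as Itga2, Klrg1, Car2, Cd247 and Themis, were chosen after their values were seen. Whether tumors of a group share a litter or day is not given. Some genes the rule names are not reported here. Intervals cover counting error only.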

Additional observations from a re-analysis of the deposited data

Results flagged for a closer look

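Irradiated tumor 4 stood apart from the other 3 irradiated tumors in the NK share of filtered cells, with a gap of 0.8369 of the group's range. The same measure was 0.9983 for Gzmf in irradiated NK cells, again from irradiated tumor 4. Irradiated tumor 1 stood apart for Tbx21 (0.9019). By Dixon's 95% limit for groups of 4, 3 of 40 groups looked at were past it, where chance gives about 1 in 20.

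The irradiation effect differed between NK and T cells in edgeR's test of the difference itself for 4 genes. The log2 change in NK minus that in T cells was -2.816 for Gzmb, 6.423 for Gzmf, -1.94 for Hspa1a and -7.722 for Itgae. Without the single NK cell with the most granzyme UMIs, Gzmf was the gene still called, at 3.842. That call rested chiefly on 1 cell of irradiated tumor 4 (239 UMIs of Gzmf) and 1 cell of control tumor 1 (122 UMIs).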

How the results depend on the processing

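The mean NK share of filtered cells was higher in irradiated tumors under all alternatives run, but the groups did not always stay apart. With at least 1 UMI of Ncr1 plus Klrb1c, irradiated tumor 2 (0.173%) lay below control tumor 1 (0.198%). The difference was then 0.108 points (exact permutation p = 0.429). Among cells with a UMI of Ptprc, irradiated tumor 2 (0.345%) again lay below control tumor 1 (0.383%). The groups stayed apart with at least 3 UMIs, with cells thinned to 2000 UMIs, with no cell filter and with stricter exclusion. Stricter exclusion gave 0.154 points (exact permutation p = 0.0571), with 2 NK cells each left in control tumors 1 and 3. The NK share of NK and T cells was lower by 0.317 points and reversed with at least 3 UMIs (0.549), with cells thinned to 2000 UMIs (0.6102), with stricter exclusion (1.652) and within the first library set (0.3797). Leaving out 1 tumor gave -1.131 to 0.2909 for it, and -17.99 to 2.381 points for the cycling share. Genes called in NK cells numbered 3 with no filter on low counts and 0 to 1 with 1 tumor left out. Genes whose change differed from T cells numbered 2 with no filter, 1 without the highest granzyme cell (chosen after seeing the data) and 2 to 6 with 1 tumor left out. The causes were not tested.

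The replicate numbers did not pair the tumors: deviations of same-numbered tumors correlated at -0.0861, 0.0546 and 0.0738. With the replicate number as a block, 3 genes were called in NK cells (S100a4, Lgals3 and Gzmb, all lower), and the differences were 0.0656 points for the share of filtered cells, -1.13 for the share of NK and T cells and -11.6 for the cycling share.

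Of 511 values for 39 results of named genes, 481 kept direction and side of the threshold, 16 lost a call, 2 gained one and 12 reversed. Reversed log2 values were 0.1855 (Tnfrsf9), -0.1932 (Vav3), -0.3043 (Psmb8) and 0.7154 (Rgs1) with stricter exclusion, -0.0099 (Ifng) and -0.3605 (Stmn1) with the block, and -0.1694 (Stmn1) with the library set as a term. With 1 tumor left out, the ranges were -0.5835 to 0.07638 for Tnfrsf9, -1.023 to 0.7561 for Top2a, -1.893 to 1.126 for Rora and -0.579 to 0.1121 for Ldha. Depth limits the test: 4 to 14 NK cells per tumor left 1013 genes to test.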

Other observations

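The 16 cells left out for Cd3e or Cd3d, with a median of 6303.5 UMIs, came from irradiated tumors 2 (4 cells) and 4 (5 cells) and control tumors 1 (4 cells) and 3 (3 cells). They held 15% of all Klrb1c UMIs, 14.4% of Ncr1 UMIs and 4.07% of Gzmc UMIs. The 13 cells left out for macrophage or tumor cell genes had a median of 38538 UMIs and held 17.9% of Gzmc UMIs. In irradiated tumor 2, 0.508% of Gzmc UMIs lay in NK cells, against 31.5% to 94.5% in the other 6 tumors.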
